A study of Homo sapiens with 2 samples.

Results

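The Notch pathway and HES/HEY genes described here are 9 genes that were chosen by symbol, as rows of the gene lists of both libraries: the ligands DLL1, DLL3 and JAG1, the receptors NOTCH1, NOTCH2 and NOTCH3, and the target genes HES1, HES4 and HEY1. All 9 symbols matched 1 row each among the 33538 genes in the files, and the rule uses no measured value. Of the 9, 6 reached a level at which they were counted against a threshold, and the other 3, DLL1, HES4 and HEY1, stood below 5 unique molecular identifiers (UMIs) per 1000000 (CPM) in both libraries.

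The files hold 2 single-cell RNA libraries of human embryonic stem cells (hESCs), made to ask how the response to bone morphogenetic protein 4 (BMP4) differs when GATA3 has been targeted. The library labelled WT came from H1, an established hESC line, kept in mTeSR1 medium with 50 ng/ml BMP4 for 48 h. The library labelled GATA3 KO came from KO-GATA3-06, kept in the same medium with 50 ng/ml BMP4 for 48 h. KO-GATA3-06 is 1 clone, edited in H1 cells with an inducible Cas9 insertion, and the effects of the clone, the insertion and the GATA3 edit cannot be told apart here. For the WT library 1 protocol field says 1 h of BMP4, against 48 h in the other labels, and the latter was taken. There was 1 library per group and no replicate, so no test was made. Every interval below is a 95% interval that covers counting error only, and a difference is one between 2 libraries.

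Notch signalling acts between touching cells. A ligand of the Delta or Jagged family on one cell binds a NOTCH receptor on its neighbour, the receptor is cut by ADAM proteases and γ-secretase, and the freed intracellular part joins the DNA-binding protein RBPJ and a Mastermind coactivator to switch on target genes. HES and HEY genes are the best known targets and encode repressors of the basic helix-loop-helix class. HES1 also answers to other signals, BMP among them, and Notch activity takes part in the balance between pluripotency and lineage choice in early embryonic cells.

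After removal of cells with over 7500 detected genes or over 25% mitochondrial counts, 2519 of 3802 cells were kept in the WT library and 4450 of 6221 in the GATA3-KO library, and these cells held 99587274 and 175285931 UMIs in all, at a median per cell of 44415 and 43131.5. The libraries shared 5 cell barcodes among the kept cells. All 6 pluripotency markers listed for the label hESC (POU5F1, SOX2, NANOG, LIN28A, DPPA4 and L1TD1) were found at over 5 CPM in both libraries. Their summed level was 2747 CPM in WT and 3890 CPM in GATA3-KO. POU5F1, SOX2, LIN28A and L1TD1 were higher in GATA3-KO, while NANOG (75.6 and 55.7 CPM) and DPPA4 (270 and 247 CPM) were lower. The summed level of 5 primitive streak markers was 253 against 12.4 CPM, and that of 3 endoderm markers was 18.7 against 0.319 CPM. That of 6 amnion or trophectoderm markers was 39.0 against 69.4 CPM, though ISL1 among them was lower in GATA3-KO (4.65 and 2.72 CPM). The 6 neural markers listed summed to 1.28 and 2.03 CPM, and 4 presomitic mesoderm markers to 3.88 and 2.09 CPM. Of 4 endothelial markers, PECAM1 and CDH5 were at or near 0, whereas KDR stood at 81.6 and 41.3 CPM and TEK at 8.88 and 8.42 CPM. GATA3 transcript stood at 12.7 CPM in WT and 10.9 CPM in GATA3-KO. The log2 ratio of GATA3-KO over WT, on the scale of CPM plus 1, was -0.19, but -0.73 without the upper limit on detected genes. A 3′ UMI does not read the edited part of the coding sequence, so this level does not check the label. Because the mix of cells differed between the libraries, a level summed over a library cannot tell fewer cells of a type from less RNA per cell. Each member is therefore given first over the library and then within cells of like marker content.

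HES1 was the member that differed most between the libraries. It stood at 27.1 CPM (26.1 to 28.2) in WT and at 14.3 CPM (13.7 to 14.9) in GATA3-KO, 1.84-fold lower on the scale of CPM plus 1. NOTCH3, at 19.7 and 25.8 CPM, and the scarce ligand DLL1 were the 2 members with a higher level in GATA3-KO, and the other 7 had a lower one. Ratios are log2 of CPM plus 1 in GATA3-KO over the same in WT, and 6 members reached the 5 CPM in the higher library that was asked of a gene before it was counted. Of these 6, 1 (HES1) was at least 1.5-fold lower in GATA3-KO and 0 were at least 1.5-fold higher. Among all 9979 genes of at least 5 CPM, 7.83% were that much lower and 14.3% that much higher. The median log2 ratio was -0.22 over the 9 members and 0.08 over those 9979 genes.

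**Figure D1:**
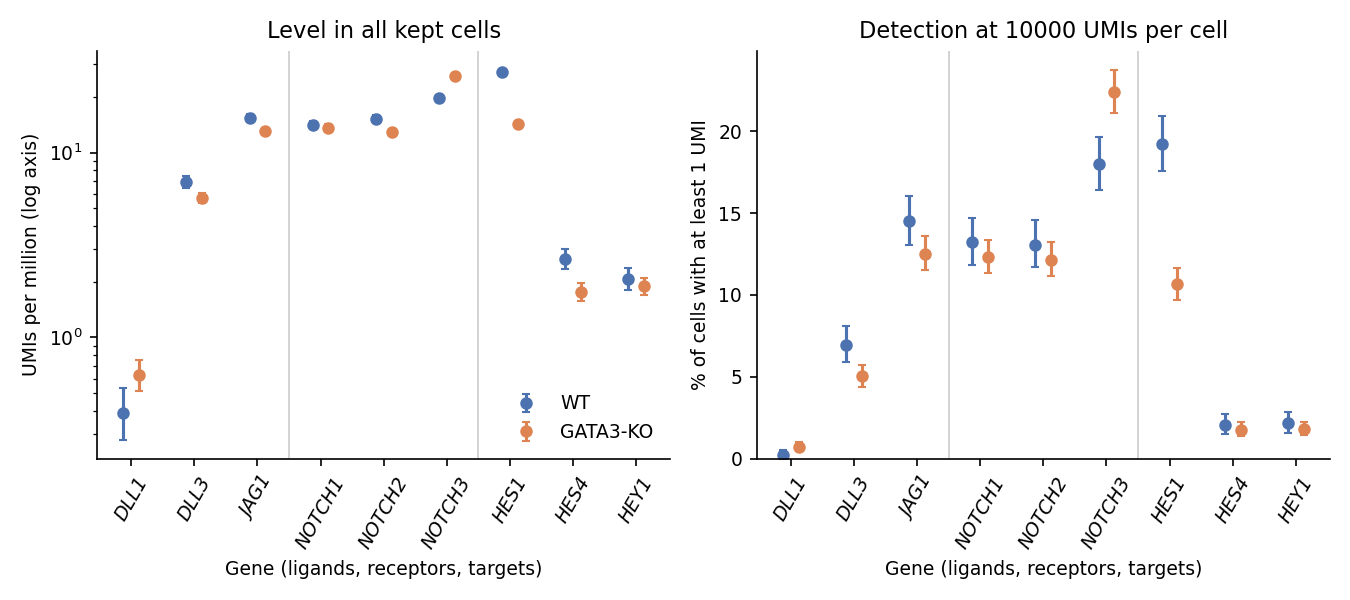
Left, level of each gene in CPM on a log axis, over all kept cells of the WT library (blue) and the GATA3-KO library (orange); right, share of cells with at least 1 UMI after every cell was thinned to 10000 UMIs. Points are the single libraries and bars their 95% counting intervals, exact Poisson on the left and exact Clopper-Pearson on the right. HES1 falls from 27.1 to 14.3 CPM and from 19.2% to 10.6% of cells, and NOTCH3 is the abundant gene that is higher in GATA3-KO.

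Among the ligands, JAG1 was the most abundant. JAG1 (ENSG00000101384, chromosome 20, 10637684 to 10673999, minus strand in GRCh38), a Jagged family ligand, had 1532 UMIs in WT and 2290 in GATA3-KO, or 15.4 CPM (14.6 to 16.2) and 13.1 CPM (12.5 to 13.6). Its log2 ratio was -0.22 (-0.31 to -0.13). DLL3 (ENSG00000090932, chromosome 19, 39498895 to 39508481, plus strand), an atypical Delta protein known mainly as an inhibitor of Notch signalling within the cell, stood at 6.90 CPM (6.39 to 7.43) and 5.69 CPM (5.34 to 6.05). Its log2 ratio was -0.24 (-0.36 to -0.12). DLL1 (ENSG00000198719, chromosome 6, 170282206 to 170306565, minus strand), the Delta ligand of somite formation, was barely sampled, with 39 and 110 UMIs in all. It stood at 0.392 CPM (0.278 to 0.535) in WT and 0.628 CPM (0.516 to 0.756) in GATA3-KO, and its log2 ratio was 0.23 (0.05 to 0.39). The 1 CPM added before the ratio is above both levels, and with 0.1 CPM added in its place the log2 ratio was 0.57. The intervals of both libraries did not overlap for JAG1 and DLL3, and overlapped for DLL1. Overlap was not counted over all genes, so it has no share beside it and is not read as a result about the ligands.

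The receptors lay close to one another, between 12.8 and 25.8 CPM in both libraries. NOTCH1 (ENSG00000148400, chromosome 9, 136494433 to 136546048, minus strand) stood at 14.1 CPM (13.4 to 14.9) and 13.6 CPM (13.1 to 14.2). Its log2 ratio of -0.04 had an interval from -0.13 to 0.05, so no difference was detectable at this depth. NOTCH2 (ENSG00000134250, chromosome 1, 119911553 to 120100779, minus strand) stood at 15.2 CPM (14.4 to 15.9) and 12.8 CPM (12.3 to 13.4), with a log2 ratio of -0.22 (-0.31 to -0.13). NOTCH2 has near-identical partial copies, of which 1, NOTCH2NL, is a row of its own in the files, so its count is uncertain. NOTCH3 (ENSG00000074181, chromosome 19, 15159038 to 15200995, minus strand) stood at 19.7 CPM (18.8 to 20.6) and 25.8 CPM (25.1 to 26.6), with a log2 ratio of 0.38 (0.30 to 0.45). A UMI here counts 1 captured transcript whatever its length, so levels were compared between genes without division by length, although genes can differ in how well their 3′ ends are captured. In WT the order from high to low was HES1, NOTCH3, JAG1, NOTCH2, NOTCH1, DLL3, HES4, HEY1 and DLL1. In GATA3-KO it was NOTCH3, HES1, NOTCH1, JAG1, NOTCH2, DLL3, HEY1, HES4 and DLL1. Neighbours whose intervals overlapped were JAG1, NOTCH2 and NOTCH1 as well as HES4 and HEY1 in WT, and HES1, NOTCH1, JAG1 and NOTCH2 as well as HEY1 and HES4 in GATA3-KO.

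Of the target genes only HES1 was well sampled. HES1 (ENSG00000114315, chromosome 3, 194136148 to 194138732, plus strand), a repressor that also damps its own transcription, had 2703 UMIs in WT and 2505 in GATA3-KO although the latter library held more cells. Its log2 ratio was -0.88 (-0.95 to -0.81), and 3.02% of the 9979 genes had a lower one. HES4 (ENSG00000188290, chromosome 1, 998962 to 1000172, minus strand), a close relative of HES1, stood at 2.67 CPM (2.36 to 3.01) and 1.76 CPM (1.57 to 1.97), for a log2 ratio of -0.41 (-0.58 to -0.24). HEY1 (ENSG00000164683), known from heart and vessel formation, stood at 2.07 CPM (1.80 to 2.37) and 1.89 CPM (1.69 to 2.10). Its log2 ratio of -0.09 (-0.26 to 0.08) spanned 0. The targets therefore did not share one size of difference, with HES1 furthest from 0, HES4 next and HEY1 nearest to it.

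The sequence upstream of HES1 is shown because HES1 is the member the results turn on, and because the letters that RBPJ is known to bind are visible in it. It is the RefSeq sequence (GRCh38.p14) of the 250 bases before the start of the gene, chr3:194135898-194136147 on the plus strand, with each match to the RBPJ core TGGGAA in capitals. For HES4, the 30 bases around its single match are shown, chr1:1000156-1000185 on the minus strand.
HES1: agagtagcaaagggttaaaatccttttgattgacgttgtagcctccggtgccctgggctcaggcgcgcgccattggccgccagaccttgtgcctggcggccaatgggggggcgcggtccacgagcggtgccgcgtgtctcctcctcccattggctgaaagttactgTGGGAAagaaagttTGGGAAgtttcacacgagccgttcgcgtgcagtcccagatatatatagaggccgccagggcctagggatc
HES4: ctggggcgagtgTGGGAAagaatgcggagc

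Of the 9 members, 6 were matched in the promoter table (JAG1, NOTCH1, NOTCH2, NOTCH3, HES1 and HES4). DLL1, DLL3 and HEY1 were not matched. Within 250 bases upstream and on both strands, TGGGAA was found in 2 of the 6, HES1 and HES4, and in 20.8% of 35116 promoters. HES1 held 2 copies, which began 84 and 70 bases before its start, and 2.90% of all promoters held at least 2. HES4 held 1 copy, 76 bases before the start in RefSeq, 1000097, which lies inside the GENCODE gene given above; the copy begins next to the GENCODE start. The N box CACNAG, bound by HES proteins, was found upstream of HES1 and NOTCH3 and in 32.0% of promoters. The class C site CACGNG was found upstream of the same 2 genes and in 26.7% of promoters, and 3 of the HES1 and NOTCH3 matches were the same letters for both motifs. The GATA motif AGATAA was found in 0 of the 6 windows and in 9.17% of all promoters, and the GC-rich SMAD motif GGCGCC in 1, NOTCH1, and in 16.4% of all promoters. These are matches of letters and do not show binding.

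To compare single cells at equal depth, each cell was thinned at random to 10000 UMIs, which left 2173 WT and 4038 GATA3-KO cells and left out 346 and 412 shallower ones. HES1 was then found in 418 WT cells, or 19.2% (17.6 to 21.0), and in 430 GATA3-KO cells, or 10.6% (9.71 to 11.6). The difference was -8.59 percentage points (-10.5 to -6.67), and without thinning the shares were 43.9% and 27.9%. NOTCH3 was found in 18.0% (16.4 to 19.7) and 22.4% (21.1 to 23.7) of cells, a difference of 4.42 points (2.31 to 6.49), with unthinned shares of 48.9% and 57.8%. In WT the intervals of HES1 and NOTCH3 overlapped at 10000 UMIs, and NOTCH3 was in more cells than HES1 without thinning, while in GATA3-KO NOTCH3 was in more cells at either depth.

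The shares of the other members differed by less. JAG1 was found in 14.5% and 12.5% of cells, a difference of -1.97 points (-3.81 to -0.17), and DLL3 in 6.95% and 5.03%, a difference of -1.92 points (-3.25 to -0.66). Unthinned, JAG1 was in 40.3% and 36.2% and DLL3 in 21.6% and 18.6% of cells. In the thinned cells the intervals of the differences spanned 0 for NOTCH1 (13.2% and 12.3%), NOTCH2 (13.1% and 12.2%), HES4 (2.07% and 1.78%) and HEY1 (2.16% and 1.81%). Unthinned shares were 39.3% and 38.7% for NOTCH1, 41.9% and 37.2% for NOTCH2, 8.81% and 5.87% for HES4, and 6.79% and 5.71% for HEY1. At 20000 UMIs the differences were -4.63 points for NOTCH2 and -2.23 points for HES4. Another draw of UMIs gave -0.60 points for DLL3 and -1.42 points for JAG1. The size of these differences therefore depended on the depth and the draw. DLL1 was found in 5 WT cells, 0.230%, and in 29 GATA3-KO cells, 0.718%, and in none of the 253 WT cells with TFAP2A, which allows a share of up to 1.19%. Free RNA in the droplets can also give a UMI, and the lowest share in any marker group bounds it from above. For HES1 that was 15.3% in WT and 8.59% in GATA3-KO, both in SOX2-positive cells, whose median depth before thinning was 46847.5 and 44703 UMIs.

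HES1 was also the member that varied most from cell to cell. Its variance was 1.47 times its mean in WT and 1.56 times in GATA3-KO at 10000 UMIs, where chance sampling of equal cells gives a value near 1. The same ratio lay between 0.986 and 1.28 for the other 8 members in both libraries. At equal relative spread this ratio grows with the level, so it does not rank scarce members such as HEY1 against HES1. At least 2 UMIs of HES1 were found in 4.88% of WT and 1.83% of GATA3-KO cells. The highest count in a cell was 5 in WT and 10 in GATA3-KO, so the library with the lower level held the cell with the highest count.

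To see in which cells the members lay, cells were called positive for a marker with at least 1 UMI of it at 10000 UMIs. SOX2, a pluripotency factor, was found in 54.4% of WT and 86.5% of GATA3-KO cells. MIXL1, a primitive streak factor, was found in 698 WT cells (32.1%) and 80 GATA3-KO cells (1.98%). TFAP2A, a factor of amnion, trophectoderm and surface ectoderm, was found in 253 cells (11.6%) and 727 cells (18.0%). GATA3 itself was found in 213 cells (9.80%) and 286 cells (7.08%). Levels in positive and negative cells were compared within each library, and a member was counted when it was past 1.5-fold in both libraries and reached 5 CPM in the higher cells of each.

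HES1 was lower in SOX2-positive than in SOX2-negative cells of both libraries. In WT it stood at 19.7 CPM in SOX2-positive and 34.0 CPM in SOX2-negative cells, a log2 ratio of -0.76 (-0.99 to -0.52). In GATA3-KO it stood at 10.3 and 33.1 CPM, a log2 ratio of -1.59 (-1.84 to -1.34). Thus SOX2-negative cells had nearly the same HES1 level in both libraries, and SOX2-positive cells did not. Over SOX2, DLL3 had the opposite pattern to HES1. It stood at 9.22 CPM in SOX2-positive and 5.25 CPM in SOX2-negative WT cells and at 5.87 and 1.84 CPM in GATA3-KO. Its log2 ratios were 0.71 (0.28 to 1.14) and 1.27 (0.62 to 1.89). Of 6 members counted, 1 (DLL3) was higher and 1 (HES1) lower in SOX2-positive cells of both libraries, beside 3.4% and 2.42% of all genes. HEY1, below 5 CPM, had log2 ratios of -0.65 (-1.22 to -0.06) and -1.23 (-1.75 to -0.68).

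HES1 was higher in TFAP2A-positive cells of both libraries. In WT it stood at 53.8 CPM in TFAP2A-positive and 22.6 CPM in TFAP2A-negative cells, and was found in 32.4% and 17.5% of them, a log2 ratio of 1.21 (0.93 to 1.49). In GATA3-KO it stood at 30.7 and 9.57 CPM, and was found in 21.5% and 8.28%, a log2 ratio of 1.58 (1.34 to 1.82). HEY1 stood at 6.32 CPM in TFAP2A-positive and 1.88 CPM in TFAP2A-negative WT cells and at 4.95 and 1.24 CPM in GATA3-KO, log2 ratios of 1.35 (0.60 to 2.05) and 1.41 (0.92 to 1.87). HES4 had log2 ratios of 0.87 (0.04 to 1.65) and 0.71 (0.17 to 1.24), so the level of all 3 targets was above that of TFAP2A-negative cells in both libraries. DLL3 was lower there, at 3.56 against 7.92 CPM in WT and 2.89 against 5.86 CPM in GATA3-KO. The WT level in positive cells rests on 9 UMIs. At 20000 UMIs DLL3 stood at 6.93 and 6.74 CPM in WT, a log2 ratio of 0.03 (-0.37 to 0.43), so it was not lower there. From all UMIs the WT ratio was -1.01 (-1.40 to -0.63). Over the 6 other settings the ratio ran from -3.16 to 0.03 in WT and from -1.23 to -0.90 in GATA3-KO. Of 6 members counted, 1 (HES1) was higher and 1 (DLL3) lower in both libraries, beside 3.33% and 2.28% of all genes. The receptors NOTCH1, NOTCH2 and NOTCH3 had log2 ratios between -0.40 and 0.25 over TFAP2A, all with intervals that spanned 0.

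Over GATA3 the picture was close to that over TFAP2A. HES1 stood at 62.0 CPM in GATA3-positive and 22.3 CPM in GATA3-negative WT cells, and at 41.3 and 11.2 CPM in GATA3-KO cells with and without the GATA3 transcript, log2 ratios of 1.43 (1.15 to 1.71) and 1.79 (1.49 to 2.07). HEY1 stood at 8.45 and 1.73 CPM in WT and at 7.34 and 1.49 CPM in GATA3-KO, log2 ratios of 1.79 (1.05 to 2.47) and 1.74 (1.10 to 2.33), from 18 and 21 UMIs in the positive cells. Of 7 members counted, 2 (HES1 and HEY1) were higher and 1 (DLL3) lower in both libraries, beside 3.48% and 2.95% of all genes. From all UMIs of the same cells in place of thinned counts, a choice made after the data were seen, the log2 ratios of HEY1 were 1.23 and 1.64 and those of HES1 were 1.19 and 1.85.

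Over MIXL1 the members differed less. HES1 stood at 33.1 CPM in MIXL1-positive and 23.0 CPM in MIXL1-negative WT cells, a log2 ratio of 0.51 (0.27 to 0.74). JAG1 was lower in MIXL1-positive WT cells, at 10.3 against 18.6 CPM, a log2 ratio of -0.79 (-1.15 to -0.44), as was NOTCH3, at 15.9 against 23.3 CPM, a log2 ratio of -0.53 (-0.83 to -0.23). The 80 MIXL1-positive GATA3-KO cells gave 13 UMIs of HES1, 7 of JAG1 and 13 of NOTCH3, with log2 ratios of 0.27, -0.58 and -0.65 whose intervals all spanned 0. Of 6 members counted, 0 were higher and 0 lower in both libraries, beside 1.37% and 1.44% of all genes. JAG1 and NOTCH3 thus made up a ligand and a receptor that were both lower in the WT cells with this primitive streak marker, while HES1 was higher in them.

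**Figure D2:**
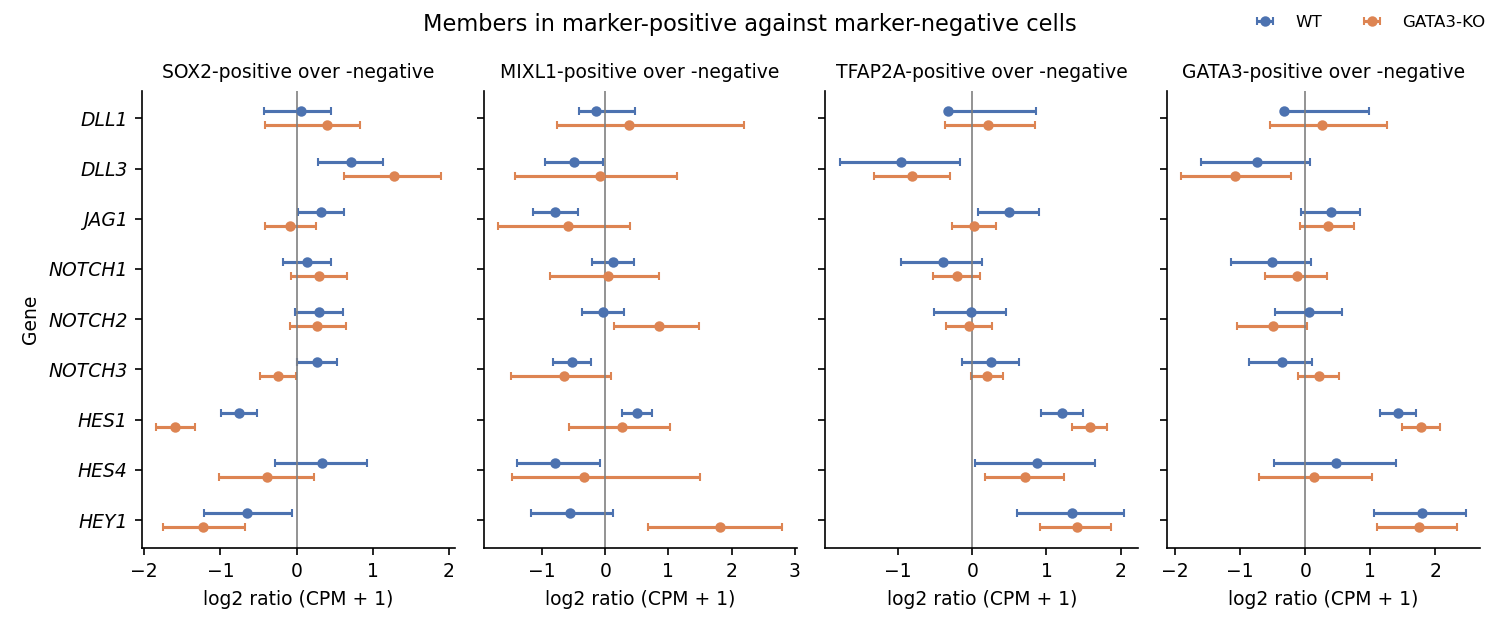
Log2 ratio of each gene in marker-positive over marker-negative cells, on the CPM plus 1 scale, for SOX2, MIXL1, TFAP2A and GATA3 in the WT (blue) and GATA3-KO (orange) libraries at 10000 UMIs per cell. Bars are 95% counting intervals. HES1 lies left of 0 over SOX2 and right of 0 over TFAP2A and GATA3 in both libraries. DLL3 lies on the other side at this depth, but its WT ratio over TFAP2A was 0.03 at 20000 UMIs. The wide orange bars over MIXL1 come from 80 cells.

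TFAP2A and GATA3 each marked higher HES1 without the other, and together the most. From all UMIs of these cells, WT cells with neither transcript had 22.4 CPM of HES1 (21.3 to 23.4), those with GATA3 alone 40.4 (35.5 to 45.6), those with TFAP2A alone 37.6 (33.5 to 42.2) and the 77 with both 83.1 (73.7 to 93.4). The GATA3-KO cells gave 9.41 (8.90 to 9.93), 30.4 (24.5 to 37.2), 26.2 (24.1 to 28.3) and, in 214 cells with both, 49.7 (45.3 to 54.3). HEY1 had the same order of lowest and highest, with 1.55 CPM in WT cells with neither and 8.81 CPM in those with both, and 1.05 and 7.32 CPM in GATA3-KO. At 10000 UMIs, HES1 was found in 50.6% (39.0 to 62.2) of WT cells with both transcripts and in 29.0% (23.0 to 35.5) of such GATA3-KO cells.

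The difference between the libraries was then taken within cells of like marker content. In SOX2-positive cells HES1 stood at 19.7 CPM in WT and 10.3 CPM in GATA3-KO, a log2 ratio of -0.87 (-1.10 to -0.65). Of 6 members counted there, 1 (HES1) was at least 1.5-fold lower in GATA3-KO and 0 higher, beside 8.37% and 11.7% of all genes. DLL3 came close in this draw, at 9.22 and 5.87 CPM, a log2 ratio of -0.57 (-0.88 to -0.27). Another draw of UMIs gave -0.25 (-0.56 to 0.06) for DLL3, and 20000 UMIs gave -0.27 (-0.49 to -0.05). Over the 6 other settings its ratio ran from -0.75 to -0.25. JAG1 stood at 17.6 and 13.4 CPM, a log2 ratio of -0.37 (-0.59 to -0.14). In SOX2-negative cells the HES1 levels, from all UMIs, were 34.3 and 33.3 CPM, a log2 ratio of -0.04 (-0.16 to 0.08). These SOX2-negative cells were not alike in the libraries: MIXL1 was found in 50.4% of them in WT and 3.86% in GATA3-KO, and TFAP2A in 20.1% and 62.1%.

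In TFAP2A-positive cells HES1 stood at 53.8 and 30.7 CPM, a log2 ratio of -0.79 (-1.10 to -0.48), and JAG1 at 21.7 and 13.8 CPM, a log2 ratio of -0.62 (-1.09 to -0.15). Of 6 members counted there, 2 (HES1 and JAG1) were at least 1.5-fold lower and 0 higher, beside 9.68% and 17.7% of all genes. The size of both rested on the draw of UMIs, since another draw gave log2 ratios of -0.34 and -0.33. All UMIs of the same cells gave -0.62 (-0.76 to -0.47) for HES1 and -0.65 (-0.87 to -0.43) for JAG1. In GATA3-positive cells the log2 ratio of HES1 was -0.58 (-0.94 to -0.21), but -0.26 from another draw, -0.10 (-0.32 to 0.13) at 20000 UMIs and -0.29 (-0.46 to -0.12) from all UMIs. NOTCH3 stood at 16.4 and 29.7 CPM in GATA3-positive cells, a log2 ratio of 0.82 (0.26 to 1.39), with 0.45 from another draw and 0.64 (0.38 to 0.89) from all UMIs.

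In MIXL1-positive cells the 80 GATA3-KO cells set the precision. HES1 had 231 UMIs in WT and 13 in GATA3-KO, or 33.1 and 16.3 CPM, a log2 ratio of -0.98 (-1.84 to -0.22), but another draw of UMIs gave -0.34 (-1.02 to 0.29). All UMIs of these cells gave -1.02 (-1.40 to -0.65), and cells with MIXL1 as the only marker gave 0.47 (-0.73 to 1.47) from 8 GATA3-KO UMIs. Of 7 members counted there, 1 (HES1) was at least 1.5-fold lower and 2 (NOTCH2 and HEY1) higher, beside 15.3% and 20.2% of all genes. NOTCH2 rested on 19 and HEY1 on 7 UMIs in GATA3-KO, and with another draw of UMIs, or with all UMIs, 0 members were that much higher.

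The markers SOX2, MIXL1 and TFAP2A were next combined, with levels from all UMIs and the 5 combinations that held at least 40 cells in each library. HES1 was lower in GATA3-KO in 5 of the 5 combinations, with log2 ratios from -1.04 to -0.31. Combinations were not counted over all genes, so this count and those of other members below have no share beside them. In the 940 WT and 3048 GATA3-KO cells with SOX2 alone it stood at 17.0 CPM (15.8 to 18.3) and 9.03 CPM (8.53 to 9.57), for a log2 ratio of -0.84 (-0.97 to -0.72). In the 127 and 335 cells with TFAP2A alone it stood at 63.7 CPM (57.2 to 70.6) and 41.0 CPM (37.9 to 44.3), for a log2 ratio of -0.62 (-0.81 to -0.43). In the 365 and 188 cells with none of the markers the levels were 25.6 CPM (23.2 to 28.3) and 20.4 CPM (17.4 to 23.9), for a log2 ratio of -0.31 (-0.57 to -0.06). The lower HES1 level in GATA3-KO was thus present in cells with SOX2 alone, with TFAP2A alone and with none of the markers, and nearest to 0 in the last.

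JAG1 and DLL3 were also lower in GATA3-KO in 5 of the 5 combinations, with log2 ratios from -0.86 to -0.01 and from -0.73 to -0.33, though the interval lay below 0 in 4 of the 5 for JAG1 and in 1 for DLL3. JAG1 stood at 24.4 CPM (20.5 to 28.8) in WT cells with TFAP2A alone and at 12.9 CPM (11.2 to 14.9) in such GATA3-KO cells. DLL3 stood at 8.57 CPM (7.71 to 9.50) in WT cells with SOX2 alone and at 6.63 CPM (6.20 to 7.09) in such GATA3-KO cells. HES4 was lower in 5 of the 5 too, from -0.94 to -0.15, with 2 intervals below 0, and stood at 3.24 CPM (2.72 to 3.83) against 1.58 CPM (1.37 to 1.81) in cells with SOX2 alone. NOTCH3 was higher in GATA3-KO in each, with log2 ratios from 0.09 to 0.60 and 3 intervals above 0. DLL1, NOTCH1, NOTCH2 and HEY1 had ratios of both signs.

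The mix of SOX2 and TFAP2A was then held equal in the 1475 WT and 3958 GATA3-KO cells without MIXL1, by giving the GATA3-KO cells the WT shares of the combinations, a choice made after the data were seen. The log2 ratio of HES1 was -0.72 in these cells as they were and -0.62 with the WT mix. For JAG1 it was -0.37 and -0.44, for DLL3 -0.25 and -0.36, for HES4 -0.63 in both cases and for NOTCH3 0.27 and 0.29. The directions of these 5 members were kept in these cells. With the WT shares of all 8 combinations, MIXL1 included, the log2 ratio of HES1 over thinned cells went from -0.92 to -0.42, which is no longer 1.5-fold, and that of HES4 from -0.18 to -0.03. Those values lean on the 80 MIXL1-positive GATA3-KO cells, and among them on the 18 with MIXL1 alone, which were given the WT share of 19.7%. In these 18 cells HES1 stood at 44.4 CPM from 8 thinned UMIs, but at 20.3 CPM (11.8 to 32.5) from all UMIs. The fall of the HES1 ratio below 1.5-fold therefore rests on few UMIs and does not show how much of the difference came from the mix of cells.

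**Figure D3:**
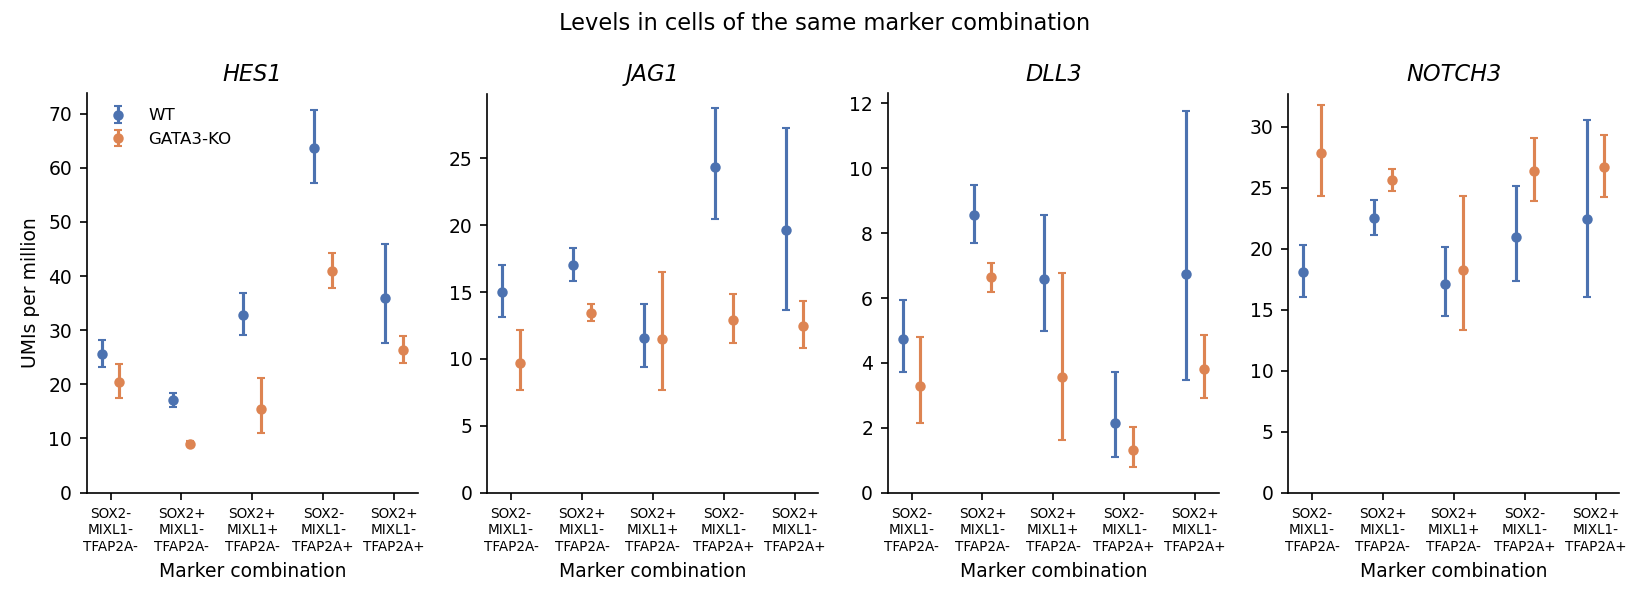
Levels of HES1, JAG1, DLL3 and NOTCH3 in CPM (linear axes from 0), in the 5 combinations of SOX2, MIXL1 and TFAP2A that held at least 40 cells of both the WT (blue) and the GATA3-KO (orange) library. Bars are 95% exact Poisson intervals; the HES1, JAG1 and DLL3 points are lower and the NOTCH3 points higher in GATA3-KO in all 5 combinations, with JAG1 nearly level in cells with SOX2 and MIXL1.

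The genes most like HES1 across cells were ID3, ID1 and HPGD. Among 8916 genes found in at least 5% of cells of both libraries, they had the highest Pearson correlation with HES1 over thinned cells (log of 1 plus the count), ranked by the lower of both libraries. ID3 had r of 0.21 over 2173 WT cells and 0.22 over 4038 GATA3-KO cells, ID1 had 0.19 and 0.21, and HPGD, which encodes a prostaglandin-degrading enzyme, had 0.19 and 0.21. ID1 and ID3 encode inhibitors of helix-loop-helix factors and are known as early BMP targets. These are weak correlations over cells of the same libraries and are given as a description. Within cells with SOX2 alone, r with ID3 was 0.22 in WT and 0.17 in GATA3-KO, and r with HPGD was 0.14 and 0.035. Between the libraries the 3 genes did not move as one: the level of ID3 went from 991 to 787 CPM, that of HPGD from 228 to 117 CPM, and that of ID1 from 466 to 1046 CPM. HM13 and BCL2L1, which lie near ID1 on chromosome 20, also had higher levels in GATA3-KO, with log2 ratios of 1.42 and 1.56 beside 1.17 for ID1, whereas POFUT1, also nearby, had 0.24. None of the other 8 members had a gene whose lower r reached 0.15.

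Ligands, receptors and targets were found in the same cells about as often as their separate shares would give. At 10000 UMIs a ligand was found in 20.7% of WT and 17.3% of GATA3-KO cells, a receptor in 37.6% and 39.7%, and both in 8.05% and 7.31%. A target was found in 22.5% and 13.7% of cells. In WT a target was found in 22.4% of cells with a receptor UMI and in 22.5% of cells without one, and in GATA3-KO in 14.3% and 13.3%. With and without a ligand UMI the shares were 23.8% and 22.2% in WT and 12.0% and 14.1% in GATA3-KO, so they differed in direction. The single pairs given next are examples out of all pairs of members, without a rule fixed beforehand. Of single pairs, JAG1 and NOTCH3 shared 71 WT cells where 56.7 would be given by their shares, and 122 GATA3-KO cells where 113 would. DLL3 and HES1 shared 28 WT cells where 29.0 would be given and 11 GATA3-KO cells where 21.6 would. NOTCH2 and NOTCH3 shared 1.21 and 1.13 times the number given by their shares. At 10000 UMIs most transcripts of a cell are missed, so a cell without a UMI is not a cell without the transcript.

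Other genes of the pathway were taken from a list of 64 by role, of which 63 symbols were rows of the files; TLE5 was absent under that name and present as AES. Of these, 47 reached 5 CPM in the higher library. In GATA3-KO 5 were at least 1.5-fold higher and 2 at least 1.5-fold lower, and 37 had a log2 ratio above 0. Among all 9979 genes 14.3% were that much higher, 7.83% that much lower and 56.4% above 0. Neither count at 1.5-fold exceeded its share over all genes, while 37 of 47 above 0 was more than the share over all genes. Their median log2 ratio was 0.16, beside 0.08 for all 9979 genes. Among the higher genes were LFNG, a glycosyltransferase that alters how receptors read their ligands (2.70 and 7.50 CPM, log2 ratio 1.20), DTX2, a Deltex ubiquitin ligase (6.66 and 15.7 CPM, 1.12), AES, which encodes a corepressor (51.9 and 96.0 CPM, 0.87), and HES6, which counteracts HES1 (27.7 and 42.2 CPM, 0.59). The lower genes were MAML3, a Mastermind coactivator (7.84 and 2.46 CPM, -1.35), and MIB2, a ubiquitin ligase of ligands (24.5 and 12.3 CPM, -0.93).

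By role, and beside the 56.4% of all genes, 11 of 15 counted genes of ligand and receptor processing had a ratio above 0, 6 of 8 of the nuclear complex, 10 of 12 corepressors and 7 of 9 inhibitors and turnover factors. RBPJ, the DNA-binding partner of the cut receptor, stood at 146 CPM in WT and 168 CPM in GATA3-KO, a log2 ratio of 0.21. The Mastermind genes differed in direction, with MAML1 at 13.9 and 17.1 CPM and MAML2 at 10.5 and 7.28 CPM. NRARP, a feedback inhibitor that Notch is known to induce, stood at 6.24 and 6.81 CPM, a log2 ratio of 0.11 (-0.01 to 0.23). Of the other HES and HEY genes, HEY2 stood at 11.1 and 11.6 CPM, while HES5, HES7 and the ligand DLL4 stayed under 1 CPM in both libraries.

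**Figure D4:**
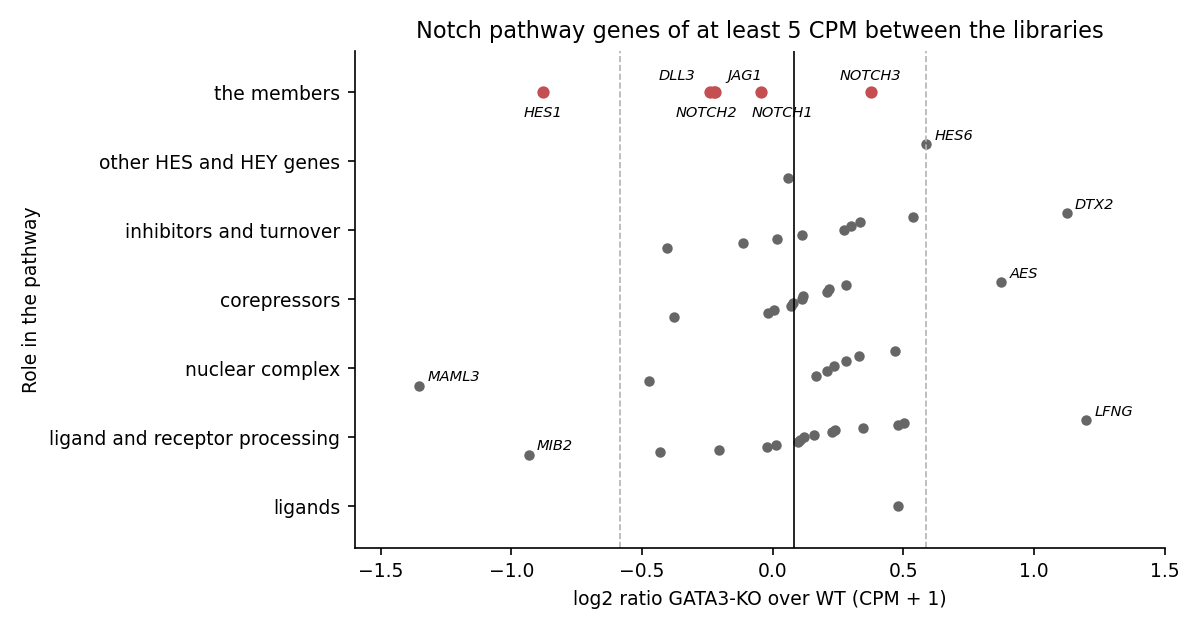
Log2 ratio of GATA3-KO over WT on the CPM plus 1 scale for the other Notch pathway genes shown (grey, by role) and the 6 members (red) that reached 5 CPM in the higher library. Each point is 1 gene in 2 libraries without replicates; dashed lines mark 1.5-fold and the solid line the median of all 9979 genes, and HES1 is the only member beyond a dashed line.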

How the data were processed

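The deposited files hold raw counts of UMIs per gene and cell barcode. Per the file headers and the labels, the authors made them with Cell Ranger 3.0.2 from 10x Genomics 3′ v3 libraries on GRCh38, and they deposited the barcodes called as cells. The members, gene lists and markers were chosen with earlier results of these data known. Cells with over 7500 genes or over 25% mitochondrial counts were removed, after the methods of the study. Doublets were not called, and only the limit on genes acts on them. Counts were summed per library and given as CPM, with a pseudocount of 1 CPM for log2 ratios. Intervals were exact Poisson for levels, exact binomial for ratios and Clopper-Pearson for shares. Cells were thinned to 10000 UMIs (seed 1) for shares and marker groups. Genes of at least 5 CPM were counted at 1.5-fold. The named genes were the 9 members, the pathway genes past 1.5-fold (up to 5 each way) and up to 3 genes most like a member (lower r of at least 0.15). RBPJ, MAML1, MAML2, NRARP, HEY2, HES5, HES7, DLL4, HM13, BCL2L1 and POFUT1 were named after their values were seen. The ratio and thinning code was tested on simulated data. TMM factors came from edgeR 4.0.16 (R 4.3.3), and the rest was computed in Python 3.11.15 with numpy, scipy and pandas. Positions came from GENCODE 44. Alternatives were other cell limits, scalings, pseudocounts, thresholds, depths, seeds and marker groups. 1 pathway gene that was counted is not reported here by name and is not plotted.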

Additional observations from a re-analysis of the deposited data

Results flagged for a closer look

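Of 36 comparisons of a member over a marker, 10 had opposite directions in the libraries, and in 3 of these the counting interval of the difference did not span 0. With 1 library per group the difference was not tested, and 36 intervals were looked at. NOTCH3 was higher in SOX2-positive cells of WT (log2 ratio 0.27) and lower in those of GATA3-KO (-0.25), a difference of -0.51 (-0.87 to -0.16). Over the 6 other settings its ratio ran from 0.03 to 0.34 in WT and from -0.23 to -0.05 in GATA3-KO. NOTCH2 over MIXL1 was -0.03 in WT and 0.85 in GATA3-KO, a difference of 0.88 (0.10 to 1.60), and the GATA3-KO ratio ran from -0.22 to 1.70 over the other settings. HEY1 over MIXL1 was -0.55 in WT and 1.82 in GATA3-KO, a difference of 2.37 (1.05 to 3.54) that rests on 7 UMIs, and the GATA3-KO ratio ran from 0.59 to 1.65.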

How the results depend on the processing

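The 9 members kept the direction of their ratio between the libraries under every planned setting, and with the WT shares of the 8 marker combinations NOTCH1, NOTCH2 and HEY1 turned from below to above 0 (0.11, 0.28 and 0.59), HES1 went to -0.42, under 1.5-fold, and HES4 to -0.03. At a fold of 2, 0 members were lower (1 at 1.5-fold), and 2 pathway genes were higher and 1 lower (5 and 2 at 1.5-fold). With the mean of per-cell CPM 8 pathway genes were higher. The median ratio of the members was 0.11 with the WT shares of the 8 marker combinations (-0.22 without). The values with these WT shares rest on 80 MIXL1-positive GATA3-KO cells, and lean on the 18 with MIXL1 alone. Those 18 cells gave 5 thinned UMIs of NOTCH1, 6 of NOTCH2 and 1 of HEY1, or 27.8, 33.3 and 5.56 CPM. From all UMIs these genes stood there at 15.5, 13.1 and 2.39 CPM. HEY1 also leans on 3 cells with MIXL1 and TFAP2A, at 33.3 CPM thinned and 5.10 CPM from all UMIs. Members with the same direction over TFAP2A in both libraries numbered 5 at 20000 UMIs and 8 at 10000. Within MIXL1-positive cells 2 members were higher and 1 lower. This became 0 higher and 2 lower at 20000 UMIs and with all UMIs, 0 higher with another seed, 1 higher without a limit on genes and 5 higher with 1 marker alone. Within TFAP2A-positive cells 2 were lower, but 0 with another seed and 1 without a limit on genes. Within SOX2-positive cells 1 was lower, and 2 without a limit on genes or with 1 marker alone. The all-UMI setting and the WT shares were chosen after seeing the data, and the cause of these changes was not tested. No paired analysis was possible because each group has 1 library. Depth limits DLL1, HES4 and HEY1 most, and all results in MIXL1-positive GATA3-KO cells.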
